A study of Mus musculus with 9 samples.

Results

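The genes described here are the core of the Hedgehog pathway, chosen by symbol: the ligands Shh, Ihh and Dhh, the receptor Ptch1, the decoy Hhip, the transducer Smo, and the transcription factors Gli1, Gli2 and Gli3. Of these 9 genes, 8 had a row among the 19435 genes of the deposited matrix, and Shh was not analysed here. They were followed in poly-A RNA of 9 mouse libraries: 4 primary Dicer1ko/D1693N tumors of the oviduct (tumors 1 to 4), 3 Dicer1+/D1693N oviducts (oviducts 1 to 3) and 2 Dicer1+/+ oviducts (oviducts 4 and 5). All animals were untreated. Age, strain and the promoter or Cre line behind the knockout allele are not given in the labels. Nothing states that each library came from its own animal, so p-values measure the spread between these samples, which may be technical. Libraries held 8504993 to 12526078 counted reads. The label of the tissue was checked on markers of the ciliated and secretory epithelium of the oviduct. Both kinds were present in every oviduct. Of 3 secretory markers, Ovgp1 was called lower in the tumors (log2 change -4.88), Wfdc2 was called higher (1.64) and Pax8 was not called (adjusted p = 0.0602). Of 7 granulosa and steroid cell markers 1 was called lower (12.1% of all genes were) and 0 higher. Their summed counts were 500.5 to 17245.9 in oviducts and 411.1 to 615.2 in tumors. Cyp11a1, the lower gene, had 13134.8, 946.3, 23.9, 1191.6 and 300.3 in oviducts 1 to 5. The oviducts thus differed widely in these genes, whose part in the Hedgehog values was not tested. Dicer1 itself held 576.3 to 1379.2 normalized counts in tumors, against 903.9 to 1236.8 in oviducts, a log2 change of -0.21 ± 0.25 (SE, adjusted p = 0.568), and a gene-level value does not tell its alleles apart.

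Hedgehog ligands are secreted, lipid-modified proteins. Ligand that binds Patched1 relieves the block that Patched1 puts on Smoothened, and active Smoothened at the primary cilium lets the GLI proteins switch on target genes. Gli1, Ptch1 and Hhip are themselves targets in many mouse tissues, so their RNA is often used as a readout of the pathway. In the female mouse tract, Ihh is made by the epithelium under progesterone, and the underlying stroma, which has Ptch1, Smo and the Gli genes, receives it.

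Levels are given as normalized counts, that is reads divided by the size factor of the library, and changes as tumor minus oviduct on the deposited log2 scale with their SE. Calls needed a log2 change of at least 1 and an adjusted p below 0.05. Gli3 was the 1 gene of the 8 that was called between tumors and oviducts, and it was higher in the tumors. Across all genes 6.53% were called higher and 12.1% lower, and 0 of the 8 Hedgehog genes were called lower by limma, by limma-voom or at an unadjusted p under 0.05. The median change of the 8 was 0.12, against -0.05 for all genes. Gli1, Gli2 and Hhip were higher in tumors 1, 2 and 3 than the oviduct mean and far lower in tumor 4. Without tumor 4, 4 of the 8 were called higher (Gli1, Gli2, Gli3 and Hhip), against 8.16% of all genes. Each library was left out in turn, and tumor 4 was singled out after its low values were seen, as was tumor 3 after its high values. Calls and p-values without tumor 4 or without tumor 3 are therefore no independent support. In whole-tissue RNA, fewer cells of a type and less RNA per cell cannot be told apart.

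**Figure D1:**
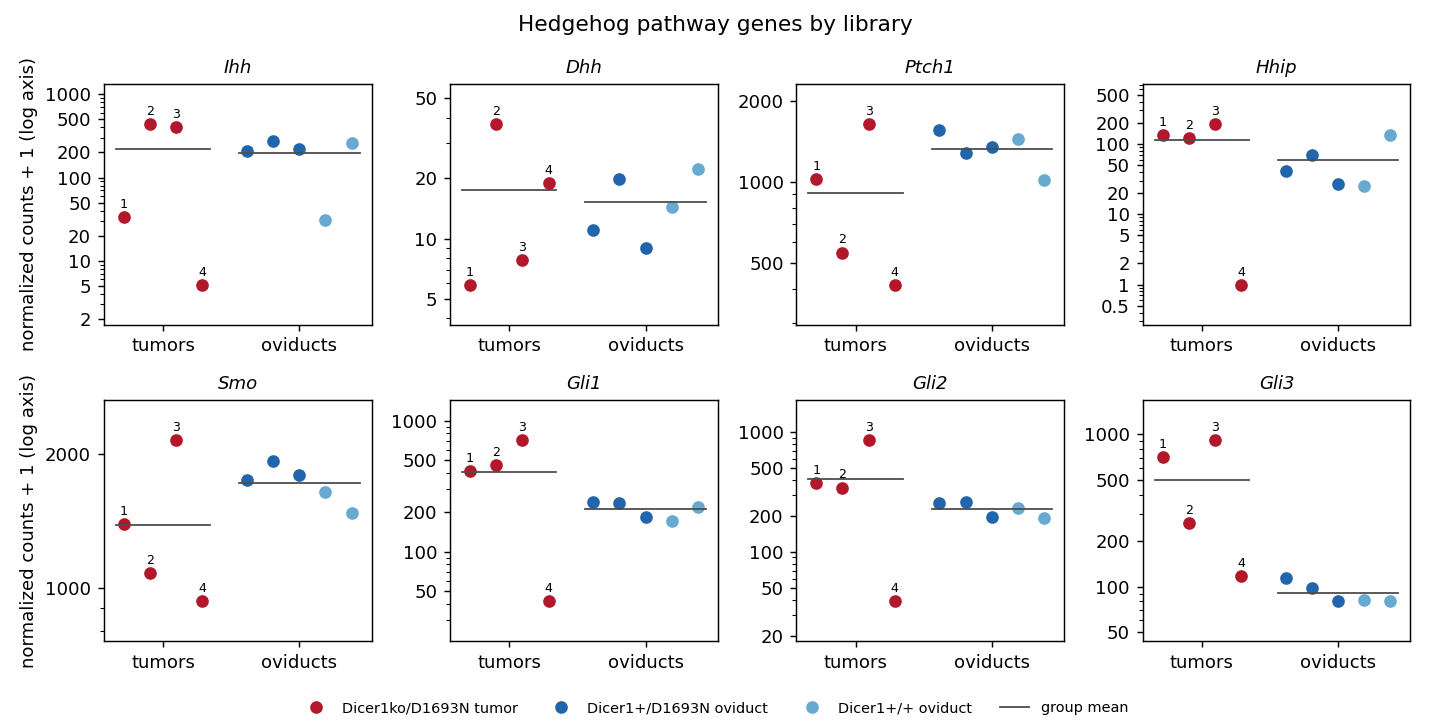
Normalized counts plus 1 (log axis) of the 8 Hedgehog genes in the 4 tumors (numbered red points) and the 5 oviducts (dark blue, Dicer1+/D1693N; light blue, Dicer1+/+), with each group's mean as a line. All tumors lie above all oviducts for Gli3, and tumor 4 is the lowest library for Ihh, Ptch1, Smo, Gli1, Gli2 and Hhip.

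Ihh (GRCm38 chr1:74945315-74951672, minus strand), the ligand of the genital tract epithelium, held 33.0, 440.6, 404.2 and 4.2 normalized counts in tumors 1 to 4, against 207.6, 271.8 and 221.9 in the Dicer1+/D1693N oviducts and 29.9 and 259.0 in the Dicer1+/+ oviducts. Tumors 2 and 3 were above every oviduct, tumor 4, with 4 reads, was below every oviduct, and tumor 1 was close to oviduct 4. The change was -0.64 ± 0.94 (adjusted p = 0.649), so the groups did not differ beyond their spread. Growth plate chondrocytes also make Ihh. Of 5 other cartilage marker genes, 3 were called higher in the tumors (6.53% of all genes were) and 1 lower (12.1%). Their summed counts spanned 541.6 to 1613.1 in tumors and 721.6 to 1083.0 in oviducts. Most of the oviduct sum was Sox9, the lower gene, with 630.4 to 961.3 there and 92.3 to 298.1 in tumors. Col2a1, 1 of the 3 higher genes, had 867.2, 17.0, 127.2 and 3.2 in tumors 1 to 4 and at most 2.2 in an oviduct. The part of these marker genes in the Ihh values was not tested.

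Dhh (chr15:98891152-98898540, minus strand), the ligand of Schwann cells and of testicular Sertoli cells, had the lowest group means of the 8. It had 4.9, 36.3, 6.8 and 17.9 normalized counts in tumors 1 to 4, against 8.0 to 21.2 in the oviducts (median 13.4). Tumor 2 was above every oviduct, while tumors 1 and 3 were below every oviduct. These values rest on 5 to 32 reads in a tumor and 8 to 25 in an oviduct, and the groups did not differ beyond their spread (change -0.00 ± 0.32, adjusted p = 0.994). Its exons share 25.2% of their length with an antisense gene and 12.4% with Rhebl1, so part of these reads cannot be assigned to Dhh with certainty. Of 7 Schwann cell markers, 3 were called lower in the tumors (12.1% of all genes were) and 0 higher. Sox10, the defining marker, had no read in any tumor and at most 6 reads in an oviduct, which leaves little to compare.

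Ptch1 (chr13:63508328-63573598, minus strand), the receptor and a direct target, had 1024.5, 546.2, 1639.3 and 415.4 normalized counts in tumors 1 to 4, against 1560.5, 1274.2, 1343.3, 1442.4 and 1011.5 in oviducts 1 to 5. Tumors 2 and 4 were below every oviduct, and tumor 3 was above every oviduct. The change was -0.72 ± 0.34 (adjusted p = 0.137). Without tumor 3 it was -1.07 and Ptch1 was called lower (adjusted p = 0.0135), as were 12.2% of all genes. Smo (chr6:29735503-29761365, plus strand), the membrane protein that relays the signal, followed the same order with 1387.8, 1079.9, 2147.0 and 931.8 in tumors 1 to 4, against 1469.2 to 1931.5 in oviducts (median 1748.0). Tumors 1, 2 and 4 were below every oviduct, and the change was -0.37 ± 0.22 (adjusted p = 0.227).

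Hhip (chr8:79965851-80058006, minus strand), the membrane-bound decoy that traps ligand, had 134.0, 120.4 and 192.5 normalized counts in tumors 1 to 3 and no read in tumor 4, where 3 reads would be 3.16. The oviducts had 40.2, 68.1, 25.9, 24.4 and 131.7. Oviduct 5 lay between tumors 1 and 2, and the other oviducts were below tumors 1 to 3. The change was 0.29 ± 0.81 (adjusted p = 0.82) with all tumors and 1.28 ± 0.41 (adjusted p = 0.0367) without tumor 4.

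Gli3 (chr13:15463235-15730026, plus strand), which codes for the GLI protein that is processed to the main repressor of the pathway in the absence of ligand, averaged 500.0 ± 373 normalized counts in tumors (SD, n = 4) and 89.7 ± 14.8 in oviducts (SD, n = 5). It had 708.9, 261.2, 913.1 and 116.7 in tumors 1 to 4, against 112.7, 96.6, 79.6, 80.2 and 79.3 in oviducts 1 to 5. Every tumor was above every oviduct, which held for 10.8% of all genes, but tumor 4, with 111 reads, was only just above oviduct 1, with 101 reads. The change was 1.88 ± 0.49 (adjusted p = 0.0145). It stayed called when any 1 library was left out, at 1.48 to 2.40 (adjusted p 0.000562 to 0.042).

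Gli1 (chr10:127329882-127341974, minus strand), an activator and target gene, had 408.8, 458.8, 705.9 and 41.0 normalized counts in tumors 1 to 4, against 237.8, 235.1, 184.1, 169.8 and 218.8 in oviducts 1 to 5. Gli2 (chr1:118834132-119053619, minus strand), the main activator in mouse, had 378.7, 344.1, 853.4 and 37.9 in the tumors, against 256.7, 259.0, 195.0, 231.9 and 192.0 in the oviducts. For both genes tumors 1 to 3 were above every oviduct and tumor 4 was below every oviduct. With all tumors the changes were 0.44 ± 0.60 for Gli1 (adjusted p = 0.62) and 0.25 ± 0.62 for Gli2 (adjusted p = 0.797). Without tumor 4 they were 1.22 ± 0.21 (adjusted p = 0.00145) and 1.03 ± 0.28 (adjusted p = 0.0162). Leaving out the lowest tumor raises the change and narrows its SE. Without tumor 3, the highest, the changes were 0.02 for Gli1 and -0.28 for Gli2.

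**Figure D2:**
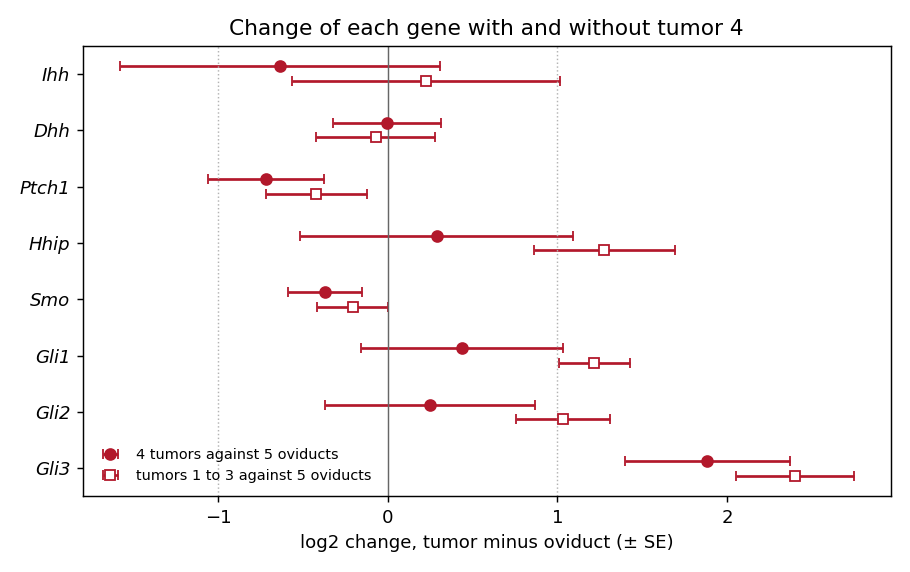
Change of each Hedgehog gene (log2, tumor minus oviduct, bars show the SE) with all 4 tumors (filled circles) and without tumor 4 (open squares), with dotted lines at a change of 1 either way. Gli1, Gli2 and Hhip move past 1 when tumor 4 is left out, while Gli3 is past 1 in both.

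Tumor 4 had the lowest count of the 4 tumors for 7 of the 8 genes, all but Dhh, whereas 24.4% of all genes were lowest there. Tumor 3 was highest and tumor 4 lowest for 6 of the 8 (Ptch1, Smo, Gli1, Gli2, Gli3 and Hhip), against 12.2% of all genes. These orders were picked after the values of the 8 genes were seen, so the shares are no independent support. Other cell type markers differed between these libraries too. The summed counts of 5 fat cell genes were 77355 in tumor 4, 27.0 to 84.5 in tumors 1 to 3 and 1346 to 11929 in the oviducts. So tumor 4 stood apart from the other tumors and from the oviducts in these genes of fat tissue. Macrophage markers (5 genes) summed to 38852 in tumor 4, 5109 to 23391 in tumors 1 to 3 and 2620 to 4592 in the oviducts. Epithelial markers (8 genes) summed to 29937 in tumor 4, 12692 to 20263 in tumors 1 to 3 and 19723 to 28023 in the oviducts. Endothelial markers (5 genes) summed to 3851 in tumor 4, 5590 to 7991 in tumors 1 to 3 and 1622 to 2763 in the oviducts. Smooth muscle markers (7 genes) summed to 12660 in tumor 4, 3513 to 70630 in tumors 1 to 3 and 33034.5 to 74385.6 in the oviducts. All 7 were lowest of the tumors in tumor 3. Myh11 of that list had 13836.7, 3434.0, 360.3 and 777.2 in tumors 1 to 4. Mesenchymal markers, of which 6 of 8 were called higher and 0 lower, summed to 130531 in tumor 4, 135861 to 141667 in tumors 1 to 3 and 24078 to 49537 in the oviducts, most of it from 3 collagen genes. Single mesenchymal genes did not all follow that sum. Pdgfra, a receptor of fibroblasts, had 4538.1, 2092.9, 6859.9 and 1089.5 in tumors 1 to 4, against 456.6 to 1112.9 in the oviducts, and Twist1 had 928.4, 432.7, 335.5 and 200.9, against 111.4 to 186.3. Pdgfra was thus within the oviduct range in tumor 4. Both markers, singled out after their values were seen, were lowest of the tumors there, as was Col1a2. Other markers of the list were not. Lum had 4373.0, 4180.0, 4179.2 and 4767.1 in tumors 1 to 4, highest in tumor 4. Dcn had 13583.3, 4583.2, 7684.0 and 12457.9, and Pdgfrb had 1717.9, 1081.1, 1324.0 and 1299.8. The mesenchymal markers thus gave no single order of the tumors. The part of these cell types in the Hedgehog values was not tested.

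Divided by the annotated exon length, the 3 Gli genes can be set beside each other. Gli1 stood at 80.8 ± 54.9 normalized counts per kb in tumors and 41.9 ± 6.14 in oviducts (SD, n = 4 and 5), Gli2 at 58.7 ± 49.0 in tumors and 33.0 ± 4.71 in oviducts, and Gli3 at 52.1 ± 38.9 in tumors and 9.35 ± 1.55 in oviducts. Gli1 was above Gli2 in all 9 libraries on this scale. Gli3 made up 35.1%, 16.1%, 26.4% and 47.0% of the summed level of the 3 genes in tumors 1 to 4, against 10.3% to 12.2% in the oviducts. The sum itself was 210.9, 169.2, 360.8 and 25.9 per kb in the tumors and 73.6 to 96.7 in the oviducts. Every tumor had a larger Gli3 share than every oviduct, also tumor 4, where the sum was lowest. In tumor 4 that share went with low Gli1 and Gli2, at 8.21 and 5.51 per kb, below every oviduct. Gli3 itself was at 12.2 per kb in tumor 4, beside 11.8 in oviduct 1. Exon lengths are unions over all annotated transcripts, so the transcripts in use could shift these levels.

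**Figure D3:**
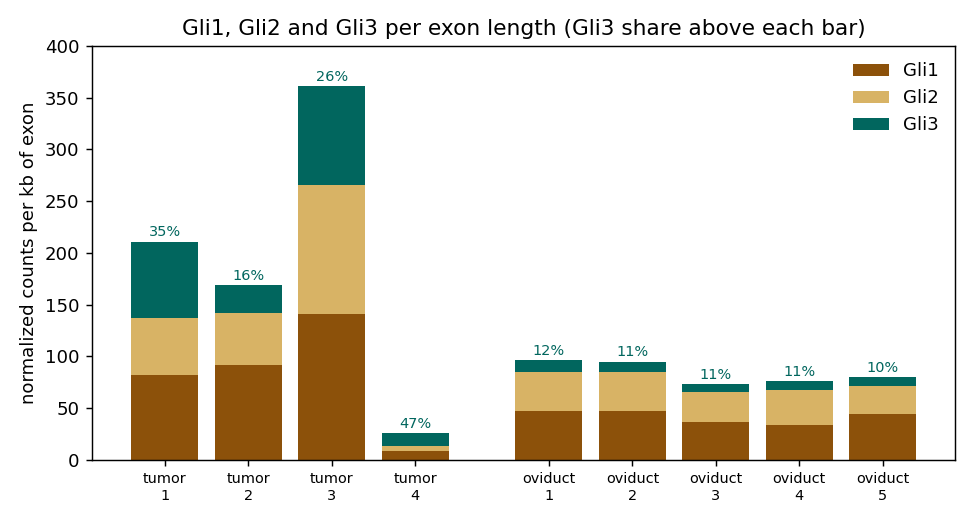
Stacked levels of Gli1, Gli2 and Gli3 in normalized counts per kb of exon for each tumor (left) and oviduct (right), with the rounded share of Gli3 above each bar. The Gli3 share is at least 16.1% in each tumor and at most 12.2% in each oviduct.

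Among all 8 genes, Smo was the highest per kb in both tissues, at 246.7 ± 96.3 in tumors and 305.4 ± 30.7 in oviducts. In the tumors it was followed by Gli1, Ihh (72.3 ± 76.7), Ptch1 (63.9 ± 39.1), Gli2, Gli3, Hhip (12.3 ± 8.90) and Dhh (3.74 ± 3.28). Compared within each tumor, Smo was above Gli1 and Gli3 above Hhip in all 4, and the other neighbours in this order changed places in at least 1 tumor. In the oviducts the order was Smo, Ptch1 (93.5 ± 14.6), Ihh (65.0 ± 32.0), Gli1, Gli2, Gli3, Hhip (6.40 ± 4.93) and Dhh (3.24 ± 1.28). Within each oviduct Smo was above Ptch1, Gli1 above Gli2 and Gli2 above Gli3 in all 5, and the other neighbours changed places in at least 1.

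The promoters of the called gene, Gli3, and of the targets Hhip and Ptch1 are shown because these genes are reported to be under Hedgehog control or to carry its output. RefSeq windows of GRCm38.p6 from 250 bases before to 50 bases after the annotated start were found for 7 of the 8 genes, all but Gli1. The 9-letter GLI motif GACCACCCA was in 0 of the 7 windows on either strand, and in 0.253% of all 32851 windows. Its 6-letter core CCACCC, which lies inside the longer motif and reads GGGTGG on the other strand, was in 6 of the 7, all but Ptch1, against 31.5% of all windows. The GC content of the 7 windows was 61.7% to 76.3%. That of all windows was not computed, so the shares with this GC-rich core are not matched for GC content. Such matches describe letters and not binding. Capitals mark the core, which lies 170 bases before the start in Gli3 and 158 before it in Hhip. The Gli3 and Ptch1 windows lie inside these genes as GENCODE M21 bounds them, so other annotated starts were not searched.
Gli3 promoter, chr13:15463473-15463772, plus strand: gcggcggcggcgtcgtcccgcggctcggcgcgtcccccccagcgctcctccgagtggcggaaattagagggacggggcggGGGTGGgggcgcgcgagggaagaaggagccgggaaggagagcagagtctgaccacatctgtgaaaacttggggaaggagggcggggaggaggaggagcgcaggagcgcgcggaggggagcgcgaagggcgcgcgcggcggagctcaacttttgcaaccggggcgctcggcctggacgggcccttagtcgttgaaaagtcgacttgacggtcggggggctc
Hhip promoter, chr8:80057959-80058258, minus strand: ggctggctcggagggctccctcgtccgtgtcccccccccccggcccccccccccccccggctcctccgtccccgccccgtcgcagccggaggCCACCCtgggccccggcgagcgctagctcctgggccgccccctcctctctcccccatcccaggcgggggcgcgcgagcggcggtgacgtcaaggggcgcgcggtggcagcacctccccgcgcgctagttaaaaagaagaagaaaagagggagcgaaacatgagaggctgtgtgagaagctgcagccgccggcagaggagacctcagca
Ptch1 promoter, chr13:63565686-63565985, minus strand: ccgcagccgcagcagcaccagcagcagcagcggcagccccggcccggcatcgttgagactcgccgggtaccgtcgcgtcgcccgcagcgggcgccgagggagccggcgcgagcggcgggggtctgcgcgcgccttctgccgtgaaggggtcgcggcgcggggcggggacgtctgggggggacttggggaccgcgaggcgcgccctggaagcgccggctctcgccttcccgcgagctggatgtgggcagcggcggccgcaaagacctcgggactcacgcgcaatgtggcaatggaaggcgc

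Tumors and Dicer1+/D1693N oviducts carry D1693N in the RNase IIIb domain of DICER1, the domain that frees the 5p strand of a miRNA precursor. In human cells miR-125b, miR-326 and miR-324-5p have been reported to act on SMO, and let-7 is the family best known for acting on oncofetal genes. Their mouse mature sequences, with bases 2 to 8 in capitals, are shown to make the searched seeds explicit.
let-7a-5p: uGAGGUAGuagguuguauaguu
miR-125b-5p: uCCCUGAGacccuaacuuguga
miR-324-5p: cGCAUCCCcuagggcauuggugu
miR-326-3p: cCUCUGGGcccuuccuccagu
The match to bases 2 to 8 was searched in the longest annotated 3' UTR of each gene (GENCODE M21, GRCm38). For let-7a-5p it was in 1 of the 8 genes, against 10.1% of 15712 measured genes, for miR-125b-5p in 1 (15.0%), for miR-324-5p in 0 (8.42%) and for miR-326-3p in 5 (19.1%). The gene with a let-7 match was Dhh and the gene with a miR-125b-5p match was Hhip. Gli3, the called gene, had a match only to miR-326-3p, a 3p strand, as did Smo, Ptch1 and Gli2. The UTR of Gli3 was 3245 bases long and that of Gli1 was 165. The shares were not matched for UTR length, and a longer UTR has more places for a match. Sites are shown with the match in capitals; miRNAs were not measured in these libraries.
Gli3 site for miR-326-3p, chr13:15728471-15728495, plus strand: cagccttctCCCAGAGgttccttat
Smo site for miR-326-3p, chr6:29760592-29760616, plus strand: atgatggtaCCCAGAGtgggctgtg
Hhip site for miR-125b-5p, chr8:79969106-79969130, minus strand: gcaaatctaCTCAGGGtgagaaatg
Dhh site for let-7a-5p, chr15:98891848-98891872, minus strand: atctgtttaCTACCTCccctaagct

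The 2 oviduct genotypes were compared with the tumors and with each other in a model that kept the 3 groups apart. Gli3 was 1.80 ± 0.59 higher in tumors than in Dicer1+/D1693N oviducts (adjusted p = 0.0535) and 2.01 ± 0.66 higher than in Dicer1+/+ oviducts (adjusted p = 0.0699), just outside the threshold in both. In these comparisons, which share the tumors, 0 of the 8 Hedgehog genes were called by limma or limma-voom and 1, Gli3, had an unadjusted p under 0.05 in each. Of all genes 16.6% were called against Dicer1+/D1693N and 13.8% against Dicer1+/+ oviducts. Between Dicer1+/D1693N and Dicer1+/+ oviducts, 0 of the 8 were called by limma or limma-voom and 0 had an unadjusted p under 0.05, against 0.0206% of all genes called. Gli3 averaged 96.3 ± 16.6 in Dicer1+/D1693N oviducts (SD, n = 3), against 80.2 and 79.3 in the Dicer1+/+ oviducts (change 0.21 ± 0.70). The largest of the 8 differences was that of Ihh, 1.11 ± 1.31, where the Dicer1+/+ libraries themselves had 29.9 and 259.0 counts.

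Around this core, 6 lists of pathway genes were followed. Of their 65 different measured genes, 10 were called higher (15.4%, against 6.53% of all genes) and 8 lower (12.3%, against 12.1%), so the share of lower calls was that of all genes. Among 6 genes that lipidate or release the ligands 2 were higher and 0 lower (median change 0.72). Hhat, the acyltransferase of Hedgehog ligands, averaged 103.6 ± 27.1 in tumors and 34.0 ± 9.17 in oviducts (change 1.21 ± 0.24, adjusted p = 0.00345). Scube3, of the family that helps release ligand from cells, averaged 501.1 ± 218 in tumors and 99.0 ± 31.2 in oviducts. Both were above every oviduct in all 4 tumors. Scube1 had 691.4, 592.8, 546.0 and 43.1 in tumors 1 to 4, against 41.3 to 155.2 in oviducts (adjusted p = 0.0512), and passed without tumor 4 (change 2.77, adjusted p = 0.00023); it was singled out after its values were seen. Among the 6 co-receptors and decoys 1 was higher and 0 lower. It was Gpc3, a glypican that competes with Patched1 for ligand in mouse, at 3663.9 ± 1379 in tumors and 769.3 ± 243 in oviducts. Cdon of that list, also singled out after its values were seen, was below every oviduct in 3 tumors. Its change of -0.91 ± 0.23 (adjusted p = 0.014) is under the minimum of 1.

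Of 13 genes of the Smoothened relay and the primary cilium, 0 were higher and 6 lower (median change -0.80). Of all genes 6.53% were higher and 12.1% lower. Without tumor 4, 3 of the 13 were lower, against 13.3% of all genes. Ift88, an intraflagellar transport protein, averaged 189.4 ± 65.9 in tumors and 1110.2 ± 183 in oviducts (change -2.47 ± 0.22, adjusted p = 2.18e-05). Iqce, which anchors the Ellis-van Creveld complex in the cilium, fell by 1.78 ± 0.14, Arl13b, a ciliary GTPase, fell by 1.10 ± 0.20, and Efcab7 fell by 1.10 ± 0.35 (adjusted p = 0.036). The call of Efcab7 was lost without tumor 4 (adjusted p = 0.0724). Of the 16 GLI kinases and ubiquitin ligases 1 was lower and 0 higher, which is no more than among all genes. The 1 gene was Stk36, the mouse homolog of fly Fused, which motile cilia need in mouse, at 64.9 ± 26.4 in tumors and 640.9 ± 109 in oviducts. Multiciliated cells express several of these genes. Their 7 markers were all called lower, and summed to 38.9 to 687.6 in tumors and 17625 to 27806 in oviducts. Their part in the ciliary genes was not tested. Sufu, which holds GLI proteins in the cytoplasm, averaged 578.2 ± 62.2 in tumors and 318.9 ± 16.2 in oviducts. It was above every oviduct in all 4 tumors, including tumor 4 with 608.9, but its change of 0.81 ± 0.13 (adjusted p = 0.000878) is under the minimum of 1, and it too was singled out after its values were seen.

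Of 15 measured genes that have been reported as Hedgehog targets in some tissue, 6 were higher and 0 lower (median change 0.97). Of all genes 6.53% were higher and 12.1% lower. Without tumor 4, 8 of the 15 were higher, against 8.16% of all genes. These genes answer to other signals as well. Sfrp1, a secreted Wnt inhibitor, averaged 4758.2 ± 2837 in tumors and 539.0 ± 120 in oviducts (change 2.90 ± 0.39, adjusted p = 0.000302), and was highest in tumor 4 with 7870.6. Foxf2, a forkhead factor of Hedgehog-receiving mesenchyme, had 230.2, 43.2, 209.4 and 2.1 in tumors 1 to 4, against 0.0 to 6.7 in oviducts (adjusted p = 0.0157), so tumor 4 did not exceed oviduct 1. Snai1 and Foxc2 rose by 2.18 ± 0.31 and 1.63 ± 0.25. In the list of the progesterone and Ihh axis of the uterus, 1 of 10 was higher and 1 lower, close to the shares of all genes. Without tumor 4, 3 were higher (Hoxa10, Msx1 and Gata2), against 8.16% of all genes. Msx1 and Gata2 were named after their values were seen. Hoxa10 rose by 2.74 ± 0.52. Areg, an EGF family ligand that progesterone induces in mouse uterus, fell by 2.93 ± 0.32, to 3.04 ± 4.87 in tumors, against 96.5 ± 21.9 in oviducts. Pgr and Nr2f2, the nuclear receptors on either side of Ihh in that axis, were not called (adjusted p = 0.28 and 0.228).

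**Figure D4:**
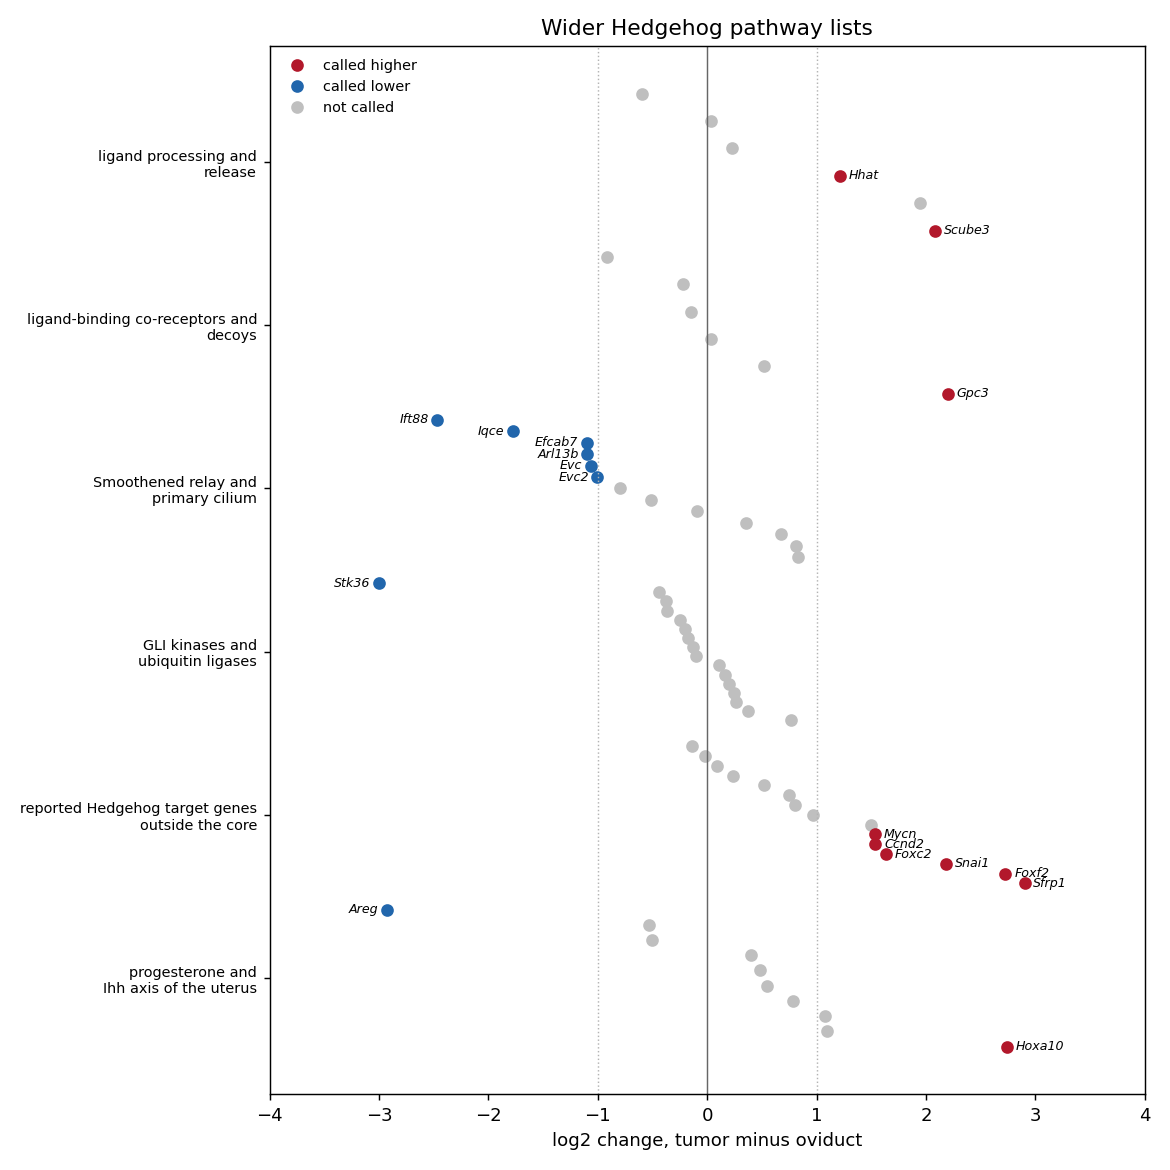
Change (log2, tumor minus oviduct) of each measured gene of the 6 wider lists, with called genes named and coloured (red higher, blue lower), uncalled genes grey and dotted lines at a change of 1. The called genes of the cilium and kinase lists are all lower and those of the ligand release, co-receptor and target lists all higher.

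The genes whose pattern over the 9 libraries was most like that of the 3 targets were found by the root mean square difference of centred log2 values, among 9718 genes in the upper part of the table. For Gli1 these were Spats2l (difference 0.19), Gli2 (0.23) and D630045J12Rik (0.29). For Hhip they were Bambi (0.48), Gli1 (0.51) and Spats2l (0.55). For Ptch1 they were Fam171b (0.20), Cacnb1 (0.22) and Gm10644 (0.23), and no other Hedgehog gene was among them. Spats2l had 500.1, 549.6, 1127.0 and 54.7 normalized counts in tumors 1 to 4, against 172.9 to 275.5 in oviducts.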

How the data were processed

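The authors deposited 1 table of log2 values per gene and library. Per the submitters' processing notes, FastQC 0.11.5, STAR 2.5.3a, HTSeq and the build GRCm38 (mm10) were used; the annotation, strand setting and transformation are not given in the sources used here. All columns share a floor of 3.427. The values fit a variance-stabilized scale, and undoing it from that floor returned whole reads, after multiplying by a size factor, for 100% of values (tolerance 0.05 reads). Read totals and normalized counts come from this step. On this log2 scale the change of genes with few reads is understated. No interval is given for reads, because PCR copies were not marked.

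Tests ran on the deposited log2 values with limma 3.58.1 (R 4.3.3, trended prior, two-sided). P-values were adjusted by Benjamini and Hochberg's method over all 19435 genes. The same tests were also run on simulated counts with far fewer changed genes than were called here. That run does not show how exact the p-values are for these data. Libraries were grouped by genotype label. Exon lengths, UTRs and positions come from GENCODE M21, promoters and miRNAs from RefSeq (GRCm38.p6). Older symbols were matched through RefSeq for Grk2 and Adgre1. The Hedgehog genes and all lists were chosen with earlier results of these data known. Besides Dicer1 and the Hedgehog genes, the text names by rule up to 4 called genes per list and direction with the largest change, and the 3 most similar genes per target. Other list genes, such as Pgr and Nr2f2, and the single cell type markers fall outside this rule and were named with their values known. Alternatives were quantile normalization, a filter on low values, limma-voom on the recovered reads, no trend, library weights, no minimum change, a replicate block and leaving out each library.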

Additional observations from a re-analysis of the deposited data

Results flagged for a closer look

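In 22 genes (the 8 Hedgehog genes and the called genes named from the lists), each group's highest and lowest library was compared with the rest, 44 groups in all, and 3 libraries stood apart by Dixon's criterion. Chance flags about 1 in 20 groups. Hhip in tumor 4 had no read, and its distance to the nearest tumor was 0.861 of the range of the tumors on the log2 scale. Ihh in oviduct 4, a Dicer1+/+ library, had 29.9 normalized counts, against 207.6 to 271.8 in the other oviducts, and stood apart by 0.861 of their range. Efcab7 in oviduct 5 had 173.0, against 58.0 to 80.2 in the other oviducts, and stood apart by 0.722 of the range.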

How the results depend on the processing

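For the 8 Hedgehog genes, 123 of 143 alternative values kept their direction and side of the threshold. With no minimum change the fit is the main one, so the direction of those values could not change. Values counted as kept could still move in size. Smo, 1 of these, was at -0.60 without tumor 3 (adjusted p = 0.016), under the minimum of 1. Gli3 was called in each alternative run on the comparison with both oviduct genotypes and lost its call with either oviduct genotype alone (1.80 and 2.01). The number of Hedgehog genes called was 1 throughout, except when a library was left out (1 to 4); it was 2 without tumor 3 and 4 without tumor 4. Genes with no call turned round as follows. Dhh was at 0.27 with quantile normalization, 0.30 with library weights, 0.0801 with the replicate block, 0.10 against Dicer1+/D1693N oviducts alone and at -0.28 to 0.19 without single libraries. Hhip was at -0.40 with limma-voom and at -0.16 to 1.28 without single libraries. Ihh was at 0.0296 against Dicer1+/+ oviducts alone and at -1.29 to 0.22 without single libraries, and Gli2 at -0.28 to 1.03. Ptch1 was at -1.07 to -0.42 and Gli1 at 0.02 to 1.22. The cause was not tested.

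Over all genes, 3625 were called, and 6051 without a minimum change. Against Dicer1+/+ oviducts 2683 were called, 642 with the replicate block and 1123 to 3570 without single libraries. A lone Dicer1+/+ oviduct is then assumed to vary like the other groups. Between oviduct genotypes 4 were called, 2 with limma-voom, 13 with library weights, 2 with the replicate block and 0 to 4 without single libraries. With quantile normalization 1696 were called higher and 1943 lower, against 1269 and 2356 as reported, and the median of all genes was 0.08 in place of -0.05. Libraries that share a number deviated together at 0.117, 0.061, -0.089 and 0.006, and those with different numbers at -0.146 to 0.139. The labels pair nothing, and these values cannot show whether same-numbered samples share an origin. With the replicate block 1 Hedgehog gene was called, Gli3 at 1.85 (adjusted p = 0.033), and 3230 genes in all. Dhh rests on 5 to 32 reads in a library, which limits the precision of its change.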
